A study of Mus musculus with 4 samples.

Results

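Cd209a conventional dendritic cells were chosen by the values of the same expression libraries that are described here, their counts of unique molecular identifiers (UMIs, counted cDNA molecules). Barcodes qualified with at least 200 genes, under 10% mitochondrial UMIs, 2 or more UMIs of Cd209a and Clec10a together and 20 or more of Cd74. They also had at most 2 UMIs of C1qa, C1qb and C1qc, at most 2 of the large-macrophage genes Gata6, Alox15, Prg4, Garnl3 and F5, and at most 10 of the B-cell genes Cd79a, Cd79b and Ms4a1. The 391 barcodes that met these limits, of 32345 with enough genes and few enough mitochondrial UMIs, are called members: 301 of 22327 came from KO mice and 90 of 10018 from WT mice. Both genotypes received the high-fat diet from 4 weeks of age and stayed on it for 3 months, and CD45+ cells (leukocytes) were sorted from their peritoneal lavage. Each genotype had 1 droplet expression library and 1 B-cell receptor (BCR) library, both labelled only as peritoneal immune cells, and the number of mice behind each was not given. No test between genotypes was therefore possible. All intervals below are 95% intervals for counting error and leave out the variation between mice. Those of ratios of CPM also leave out the variation between barcodes.

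Conventional dendritic cells take up antigen in tissues, carry it to lymph nodes and present it to T cells on major histocompatibility complex (MHC) molecules. They develop under the cytokine receptor Flt3 and are marked by the transcription factor Zbtb46, which monocytes and macrophages largely lack. The type 1 branch depends on Irf8 and cross-presents antigen to CD8 T cells, whereas the type 2 branch carries Sirpa and Irf4 and mainly primes CD4 T cells. Cd209a, a mouse relative of the human lectin DC-SIGN, and Clec10a and Mgl2, a pair of galactose-binding lectins, are C-type lectins found on part of the type 2 branch and on some monocyte-derived cells.

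The 250 bases upstream of the start of 2 of the lectin genes are shown because Cd209a chose the members and its neighbour on chromosome 8, Cd209d, was high in the members that carried plasmacytoid genes. Both sequences are RefSeq promoter windows of GRCm38.p6 on the minus strand, 5′ to 3′, for Cd209a at chr8:3748985-3749234 and for Cd209d at chr8:3878500-3878749. Capitals mark the letters GAGGAA, the core bound by PU.1-type ETS factors, on either strand.
Cd209a: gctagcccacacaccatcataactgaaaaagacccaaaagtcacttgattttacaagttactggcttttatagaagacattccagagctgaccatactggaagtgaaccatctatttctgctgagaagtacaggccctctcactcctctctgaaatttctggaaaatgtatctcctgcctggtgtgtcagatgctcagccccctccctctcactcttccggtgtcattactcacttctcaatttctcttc
Cd209d: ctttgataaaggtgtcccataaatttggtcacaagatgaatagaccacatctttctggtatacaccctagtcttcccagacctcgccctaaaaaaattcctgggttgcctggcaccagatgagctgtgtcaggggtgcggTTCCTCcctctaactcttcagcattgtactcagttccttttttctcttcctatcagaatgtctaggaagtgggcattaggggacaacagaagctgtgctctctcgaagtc
The Cd209d window held 1 match, on the opposite strand at base 141, and the Cd209a window held none. Neither window held the E-box letters CACCTG, bound by E proteins such as Tcf4. Among 32851 promoter windows, GAGGAA was found in 23.3% and CACCTG in 17.2%, so both kinds of match were common.

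The KO and WT expression libraries held 22516 and 10087 barcodes with 103953298 and 81817635 UMIs in all. Over barcodes within the gene and mitochondrial limits the median was 3325 UMIs in KO mice and 6392 in WT mice. Members had a median of 5934 UMIs (862 to 17567) and 1948 genes in KO mice, and 11089 UMIs (2921 to 31593) and 2844.5 genes in WT mice. A WT member was therefore read more deeply than a KO member, and each share of barcodes with a UMI is touched by that gap. The libraries shared 293 barcode sequences, of which 2 belonged to a KO member and 4 to a WT member, and 0 were members in both libraries.

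Members made up 1.35% of KO barcodes (1.2 to 1.51) and 0.898% of WT barcodes (0.723 to 1.10). The ratio of these shares was 1.5 (1.19 to 1.90). At the edge of the lectin limit, 23 KO and 7 WT members had exactly 2 lectin UMIs, and 50 KO and 7 WT barcodes that met every other limit had 1. Of the limits applied after the lectins, the B-cell limit removed the most barcodes, 261 in KO mice and 81 in WT mice. Of those removed, 162 (62.1%) in KO mice and 53 (65.4%) in WT mice carried a BCR contig. Flt3 was nevertheless found on 40.6% of the removed barcodes in KO mice and 43.2% in WT mice, against 3.70% of KO and 3.42% of WT B-cell barcodes, and their median depth was 11434 and 20281 UMIs. The limits are counts rather than shares, so a deeply read barcode met the B-cell limit less easily. Thinning to 2000 UMIs left out shallower barcodes, leaving 16554 in KO mice and 9401 in WT mice. With these thinned before the rule was applied, 345 KO and 93 WT barcodes qualified. Of these, 239 in KO mice and 64 in WT mice were members at full depth. Of the 106 KO and 29 WT barcodes gained, 105 and 29 had over 10 B-cell UMIs at full depth, and 83 and 21 carried a BCR contig.

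The label was checked against the markers that the rule did not use. Flt3 summed to 108 counts scaled to a total of 1000000 (CPM) in KO members and 78.7 CPM in WT members, and Zbtb46 to 30.4 CPM in KO members and 39.4 CPM in WT members. At least 1 UMI of Flt3 or Zbtb46 was found on 152 of the 301 KO members (50.5%) and 60 of the 90 WT members (66.7%). By comparison, 6 of the 50 KO barcodes and 1 of the 7 WT barcodes just below the lectin limit had either gene. Of the members with exactly 2 lectin UMIs, 4 of 23 in KO mice and 2 of 7 in WT mice had either gene. Members at the edge of the limit were thus closer to the barcodes just below it than to the members as a whole. Among T-cell barcodes, which do not use Flt3, 0.216% in KO mice and 0.113% in WT mice had a Flt3 UMI, at a median depth of 2469.5 UMIs in KO mice and 4488.5 in WT mice. The share of members with a Flt3 UMI, 43.2% in KO mice and 51.1% in WT mice, lay above this background in both libraries.

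Of the genes the rule used, Cd209a was on 285 KO and 81 WT members, Clec10a on 242 KO and 76 WT members, and both on 226 KO and 67 WT members. Cd74, the invariant chain that escorts MHC class II to endosomes, had a median of 302 UMIs in KO members and 655.5 in WT members, and the lowest member had 25 UMIs in KO mice and 38 in WT mice. Of the KO members, 5 had between 20 and 40. These values describe the choice of members only.

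**Figure D1:**
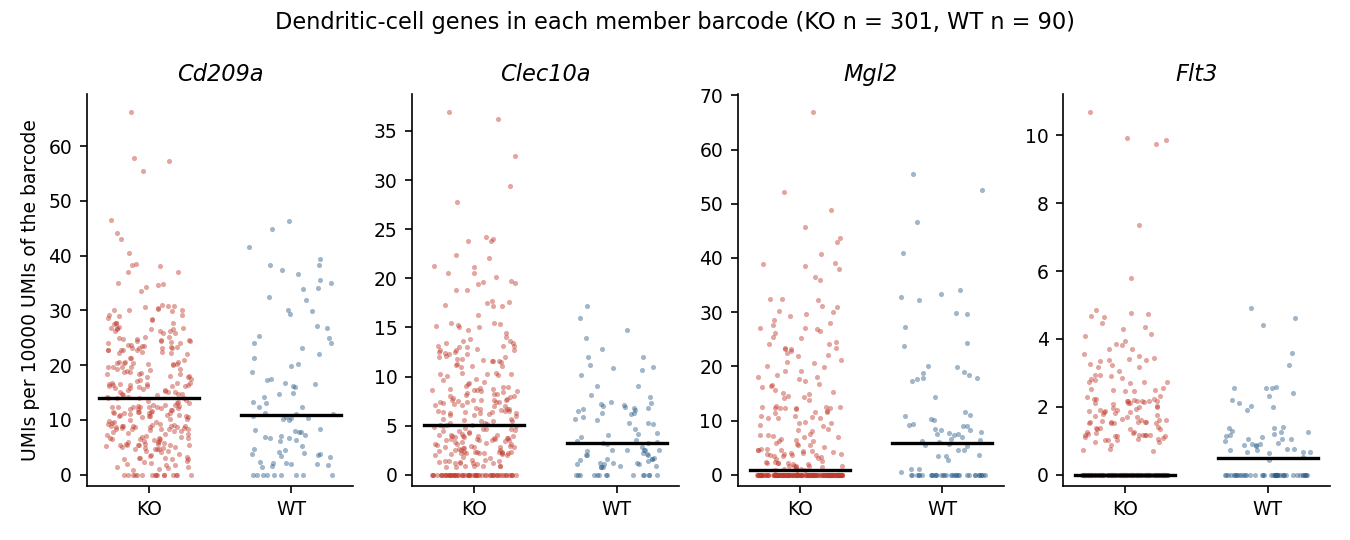
UMIs per 10000 of selected genes in each member, KO left of WT, with the bar at the median. Cd209a had a median of 13.9 per 10000 UMIs in KO members and 10.9 in WT members, and Flt3 was at 0 on many barcodes of both libraries.

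Per barcode, levels were spread over a wide range, as the plot of UMIs per 10000 shows. The median Clec10a level was 5.03 per 10000 UMIs in KO members and 3.20 in WT members. Mgl2 had a median of 0.943 per 10000 in KO members and 5.89 in WT members, with a UMI on 50.8% of KO and 63.3% of WT members. After thinning to 2000 UMIs, which left out 11 shallow KO members, Mgl2 was on 45.2% of KO members (39.3 to 51.1) and 52.2% of WT members (41.4 to 62.9), intervals that overlap. Flt3 was on 43.2% of KO and 51.1% of WT members at full depth, and on 20% of both after thinning. The MHC class II chain H2-Aa was steadier, with medians of 196 per 10000 in KO members and 187 in WT members.

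Members were set beside the myeloid barcodes most like them, and genes were called in both directions. Small macrophages, the monocyte-derived macrophages of the cavity, were taken as barcodes with 3 or more C1q UMIs that met the same limits on Cd74, large-macrophage and B-cell genes, 111 in KO mice and 22 in WT mice. Their ratio of shares, KO over WT, was 2.26 (1.43 to 3.57). It was 2.14 for large macrophages (1.39 to 3.29), 0.908 for B-cell barcodes and 0.704 for T-cell barcodes. The higher KO share was thus not particular to the members. A gene was called when its ratio of CPM had an interval wholly past 2-fold in both libraries and its level reached 50 CPM, in members for a call of higher and in small macrophages for a call of lower. Genes could thus enter a count through the population in which they were high, and the 2 counts cover different genes. Members were called higher for 53 of 2387 genes (2.22%) and lower for 100 of 2336 (4.28%). Genes of either rule were left out of these counts.

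Genes called higher in members included Mgl2, Cd209c, Cd209d, Flt3 and Itgax. Mgl2 reached 800 CPM in KO members, against 75.2 CPM in KO small macrophages, and 909 CPM in WT members, against 67.1 CPM in WT small macrophages. The ratio was 10.6 in KO mice (8.11 to 14.2) and 13.5 in WT mice (8.03 to 24.9). Cd209d was 109 CPM in KO members, against 1.39 CPM in KO small macrophages, and 178 CPM in WT members, against 0 in WT small macrophages. The KO ratio was 78 (13.8 to 3096), resting on 1 UMI in the small macrophages. With 3 counts taken as the floor of that library, 14.4 CPM, Cd209d was at least 12.4-fold higher in WT members. Cd209c was 62.5 CPM in KO members, against 4.18 CPM, and 58.1 CPM in WT members, against 0. Its ratio was 14.9 in KO mice (4.99 to 73.5) and at least 4.04-fold in WT mice. Against the same floor Flt3 was at least 5.47-fold higher in WT members, and Itgax, the integrin chain CD11c, at least 5.80-fold higher. Their exact intervals began lower, at 4.36 for Flt3 and 4.62 for Itgax. Of the core conventional dendritic cell list, 4 of the 6 genes at 50 CPM in members were called higher, and 0 of the 2 genes at 50 CPM in small macrophages were called lower. Of C-type lectins, 4 of 10 were called higher and 2 of 9 lower. These shares are descriptions, since the level needed to enter each count was read in only 1 of the populations.

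Antigen presentation and inflammatory genes were also among those called higher. H2-Oa, a chain of the H2-O heterodimer that restrains peptide loading in B cells and some dendritic cells, was 62.9 times as high in KO members as in KO small macrophages (21.4 to 306, on 3 UMIs there), and at least 14.1-fold higher in WT members. H2-DMb2, a chain of the peptide loader H2-DM, had ratios of 10.4 in KO mice (7.12 to 16.0) and 33.7 in WT mice (11.5 to 164). Ptgs2, the cyclooxygenase that makes prostaglandins in inflammation, had ratios of 14.2 in KO mice (6.80 to 35.7) and 11.9 in WT mice (3.23 to 99.6). Klrd1, the CD94 chain of NK-cell receptors, had ratios of 25.3 in KO mice (12.2 to 63.2) and 18.2 in WT mice (4.96 to 151). The MHC class II list had 3 of 12 genes called higher and 1 of 9 lower, and the NF-kB list 7 of 20 higher and 0 of 11 lower.

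Genes called lower in members included Apoe, Retnla and Lyz1. Apoe, the lipid carrier made by many macrophages, was 0.0182 times as high in KO members as in KO small macrophages and 0.0323 times in WT mice. Retnla, a secreted product of alternatively activated macrophages, had ratios of 0.00942 in KO mice and 0.00459 in WT mice. Lyz1, a lysozyme, had ratios of 0.00925 in KO mice and 0.0228 in WT mice. Ltc4s, which makes leukotriene C4, and C5ar1 and C3ar1, receptors for complement fragments, were also among the 12 genes lowest in members. By list, 5 of 9 lipid-handling genes, 5 of 10 monocyte genes, 4 of 8 macrophage genes and 6 of 18 lysosome genes were called lower in members, and 2 of 8 lipid-handling genes were called higher. Of the 28 nuclear respiratory chain genes with enough counts, 0 were called in either direction. C1q decided both sets of barcodes, so genes that travel with C1q are not independent of that choice, and these counts are a description.

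**Figure D2:**
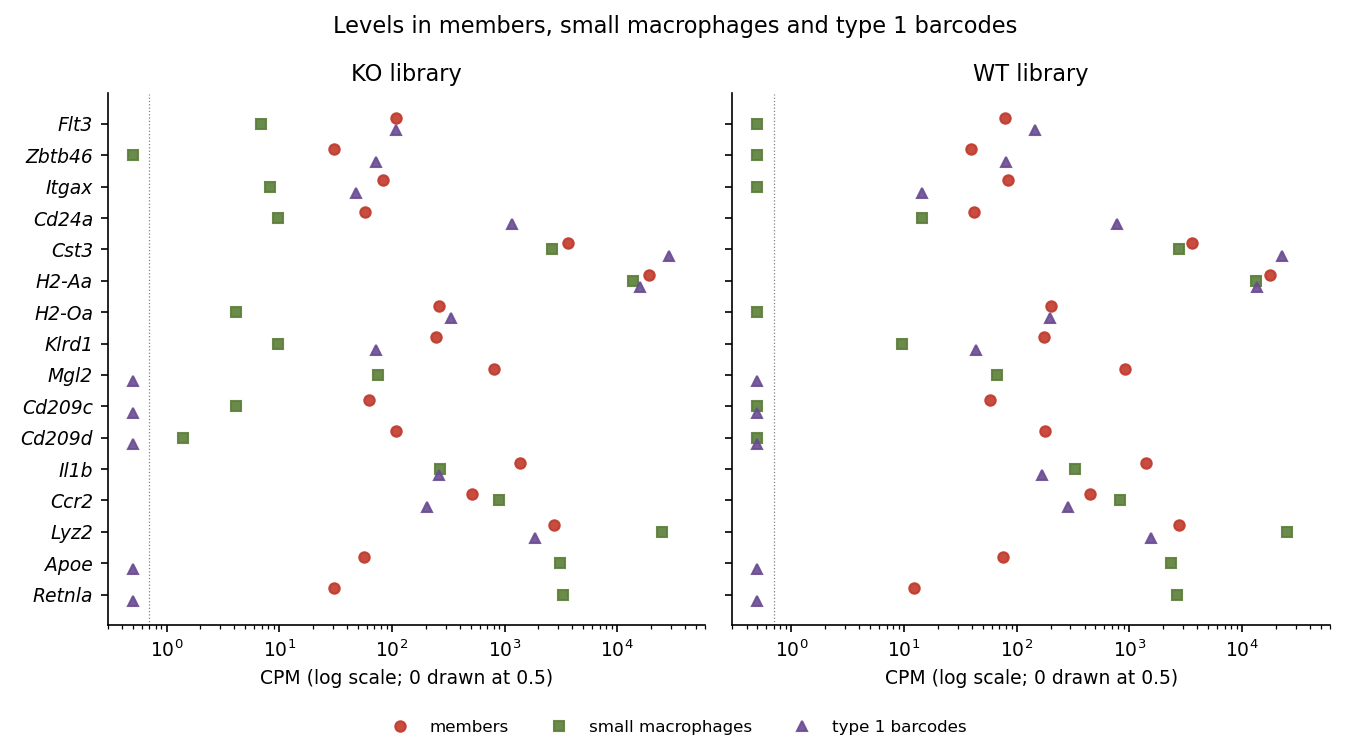
CPM on a log axis of 16 genes in members, small macrophages and type 1 barcodes outside the members. The KO library is left and the WT library right, with levels of 0 drawn at 0.5 left of the dotted line. Mgl2 was 800 CPM in KO members and 909 CPM in WT members and 0 in the type 1 barcodes of both libraries, and Retnla was high only in the small macrophages of these 3 kinds.

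Members were also set beside type 1 dendritic cells. Barcodes with 2 or more UMIs of the type 1 genes Xcr1 and Clec9a numbered 12 in KO mice and 11 in WT mice outside the members. Xcr1, a chemokine receptor of type 1 cells, was at 0 in all members of both libraries, which allows up to 1.57 CPM in KO members and 2.81 CPM in WT members. Clec9a, the other gene of that choice, was 18.9 CPM in KO members, against 456 CPM in KO type 1 barcodes, and 45 CPM in WT members, against 423 CPM in WT type 1 barcodes. Batf3, a transcription factor of the type 1 branch, had ratios of 0.732 in KO mice (0.435 to 1.33) and 0.905 in WT mice (0.598 to 1.42), intervals that include 1. Cst3, the protease inhibitor cystatin C, was 3680 CPM in KO members, against 28886 CPM in KO type 1 barcodes, and 3574 CPM in WT members, against 22692 CPM in WT type 1 barcodes. Its ratio was 0.127 in KO mice (0.122 to 0.134) and 0.157 in WT mice (0.150 to 0.165). Mgl2 was at 0 in the type 1 barcodes. Against the floor of 3 counts it was at least 22.2-fold higher in KO members and at least 41.6-fold higher in WT members. Its exact intervals began at 18.0 in KO mice and 33.7 in WT mice. Barcodes with these type 1 genes that met the membership rule counted as members, 5 in KO mice and 13 in WT mice. The type 1 barcodes were thus partly chosen by their lectins, so the level of Mgl2, a related lectin, was not independent of that choice. Irf8, the transcription factor on which the type 1 branch depends, was 39.4 CPM in KO members, against 1609 CPM in KO type 1 barcodes, and 220 CPM in WT members, against 1313 CPM in WT type 1 barcodes.

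Type 2 and core dendritic cell genes differed between these populations in both directions. Itgam, the integrin chain CD11b, was 14.8 times as high in KO members as in KO type 1 barcodes (2.63 to 585) and 6.47 times in WT mice (2.17 to 31.7), on 1 and 3 UMIs in the type 1 barcodes. Il1b, the inflammatory cytokine, had ratios of 5.18 in KO mice (3.41 to 8.28) and 8.34 in WT mice (5.54 to 13.2). Cd24a was 0.0495 times as high in KO members and 0.0541 times in WT members. For Flt3 no difference was detectable in KO mice, with a ratio of 1.0 (0.517 to 2.22), and in WT members the ratio was 0.540 (0.328 to 0.928). Ratios for Zbtb46 were 0.423 in KO mice and 0.491 in WT mice, with intervals that include 1. These type 1 barcodes were few, and each ratio rests on 12 and 11 barcodes.

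The members held several kinds of barcode, seen with gates that sum UMIs of marker genes and may overlap. The T or NK gate, 3 or more UMIs of Cd3d, Cd3e, Cd3g and Ncr1, held 74 KO members (24.6%, 19.8 to 29.9) and 30 WT members (33.3%, 23.7 to 44.1). After thinning it held 20 of 290 KO members (6.90%) and 11 of 90 WT members (12.2%). The same gate held 13.5% of KO and 13.6% of WT small macrophages, 5.04% of KO and 8.0% of WT large macrophages, and 12.8% of KO and 11.7% of WT B-cell barcodes. After the same thinning these were 4.59% and 9.09% for small macrophages, 2.13% and 9.52% for large macrophages, and 4.31% and 3.33% for B-cell barcodes. The thinned intervals of members, 4.26 to 10.5 in KO mice and 6.26 to 20.8 in WT mice, overlapped those of both kinds of macrophage. In WT mice the macrophage intervals rest on 22 small and 21 large macrophages. For B-cell barcodes the interval overlapped in KO mice, at 3.97 to 4.67. In WT mice it was 2.92 to 3.77, wholly below that of members. Members in the gate had a median of 7251.5 UMIs in KO mice, against 5344 for the other KO members, and 14695 in WT mice, against 9615.5 for the other WT members.

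Gated members carried genes of both main T-cell lineages. Cd3e was on 91.9% of gated KO members and on 100% of gated WT members. Cd4 without Cd8 chains was on 21 gated KO and 17 gated WT members, Cd8 chains without Cd4 on 17 and 4, both on 2 and 2, and neither on 34 and 7. Trdc, the gamma-delta constant segment, had a UMI on 0 of 74 gated KO members, with an exact upper limit of 4.86%, and on 0 of 30 gated WT members, with one of 11.6%. These limit barcodes with a UMI, not cells that express the gene. Scrublet, a doublet caller, was run as an alternative. The highest scores were marked up to an expected rate of 17.9% in KO mice and 8.01% in WT mice. This rate was set from the number of barcodes in each library. Scrublet's own automatic cut marked 2721 KO and 3 WT barcodes. With the expected rate, 20 of the 74 gated KO members and 1 of the 30 gated WT members were marked. Whether these barcodes held a T cell beside a dendritic cell was not tested.

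The B gate, 3 or more UMIs of Cd79a, Cd79b and Ms4a1 or a BCR contig, held 33 KO members (11%) and 2 WT members (2.22%). A BCR contig was found on 20 KO members (6.64%, 4.11 to 10.1) and 1 WT member (1.11%, 0.0281 to 6.04), against 58.8% of all KO barcodes and 59.6% of all WT barcodes. Of the members with a heavy chain, 14 of 17 in KO mice and 1 of 1 in WT mice carried a junction that recurred on other barcodes of the same library, where 67.8% of KO and 32.1% of WT heavy-chain barcodes were in such a clone. The most frequent of these in each library are shown to let them be recognised, with the first and last codon of the junction in capitals. In KO mice IGHV1-55 was joined to IGHJ1 in 32 barcodes, and in WT mice IGHV12-3 was joined to IGHJ1 in 64 barcodes. The heavy chain locus lies on mouse chromosome 12.
KO IGHV1-55 junction: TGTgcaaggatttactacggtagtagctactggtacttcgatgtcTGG
WT IGHV12-3 junction: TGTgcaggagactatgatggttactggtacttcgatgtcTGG
Contigs on members had a median of 12 UMIs in KO mice and 8 in WT mice, against library medians of 29 in KO mice and 47 in WT mice.

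The plasmacytoid gate, 3 or more UMIs of Siglech, Ccr9, Klk1 and Cox6a2, had the ratio of shares furthest from 1 among the gates. It held 2 KO members (0.664%, 0.0806 to 2.38) and 9 WT members (10.0%, 4.68 to 18.1), a ratio of shares of 0.0664 (0.0146 to 0.302). After thinning it held 1 of 290 KO members (0.345%) and 8 of 90 WT members (8.89%), so the gap stayed at equal depth. Barcodes in the gate with at most 10 B-cell UMIs, members or not, numbered 3 in KO mice and 16 in WT mice, which is 0.0134% of the 22327 KO and 0.160% of the 10018 WT barcodes within the gene and mitochondrial limits. Plasmacytoid dendritic cells, which make type I interferon, carry Siglech, a sialic acid-binding receptor. In the gate, Irf8 had 56.0% of its 75 UMIs in KO members and 97.0% of its 235 UMIs in WT members. The gated members also carried Cd209d at 1775 CPM in KO mice and 1203 CPM in WT mice, against 110 CPM in KO members and 105 CPM in WT members outside every gate. Cd209a in the gated members was 1014 CPM in KO mice and 479 CPM in WT mice, and Mgl2 was at 0 in KO mice and 129 CPM in WT mice.

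The other gates were smaller or changed with depth. The monocyte gate held 44 KO members (14.6%) and 18 WT members (20%), the mature gate 19 (6.31%) and 11 (12.2%), the type 1 gate 5 (1.66%) and 13 (14.4%), and the dividing gate 3 and 1. Thinning to equal depth left 14 of 290 KO and 9 of 90 WT members in the monocyte gate, 3 and 1 in the mature gate and 1 and 1 in the type 1 gate. Members outside every gate numbered 175 in KO mice (58.1%) and 41 in WT mice (45.6%).

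**Figure D3:**
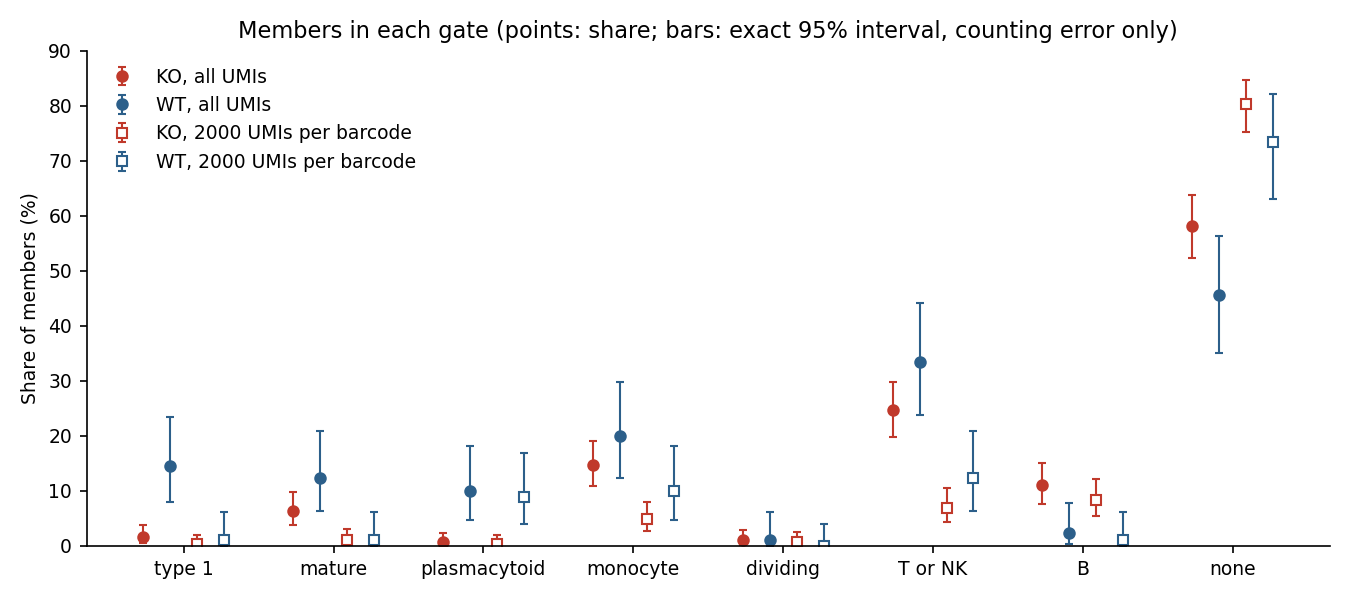
Percent of members in each gate at full depth and after thinning each barcode to 2000 UMIs, KO left of WT within each gate, with exact 95% intervals for counting error. The plasmacytoid gate stayed at 8.89% of WT members after thinning and at 0.345% of KO members, while the type 1 and mature gates held 1.11% of WT members after thinning.

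Clustering of the members of both libraries together gave 6 clusters, each numbered and described by its leading genes. Cluster sizes are not compared between genotypes, since the same genes made the clusters. Cluster 0, with 97 KO and 32 WT members, was led by Mgl2, at 1205 CPM in KO mice and 1814 CPM in WT mice, and by Fcgr2b, the inhibitory IgG receptor, and Mrc1, the mannose receptor. Cluster 2, with 66 KO and 9 WT members, carried Klrd1 at 499.5 CPM in KO mice and 403 CPM in WT mice and Cd7 at 214 CPM in KO mice and 223 CPM in WT mice. Flt3 was 193 CPM in KO members and 223 CPM in WT members of that cluster. Cluster 3, with 36 KO and 11 WT members, carried Lyz2 at 13828 CPM in KO mice and 12034 CPM in WT mice, and Ccr2, the receptor that brings monocytes to tissues, at 1163 CPM in KO mice and 653 CPM in WT mice. Flt3 in cluster 3 was 28.8 CPM in KO members and 22.5 CPM in WT members, on 6 and 3 UMIs. Flt3 was among the leading genes of cluster 2, so its lower level in cluster 3 was not independent of the clustering.

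The remaining clusters held the barcodes with RNA of other lineages. Cluster 1, with 90 KO and 30 WT members, was led by T-cell and cytotoxic genes and held 99 of the members of the T or NK gate; the chemokine Ccl5 was 2323 CPM in KO mice and 1647 CPM in WT mice. Cluster 4, with 10 KO and 0 WT members, carried Cd79a at 892 CPM. Cluster 5, with 2 KO and 8 WT members, had Siglech at 1860 CPM in KO mice and 2888 CPM in WT mice and Irf8 at 3550 CPM in KO mice and 3658 CPM in WT mice, and was plasmacytoid-like by the markers listed for that cell type.

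**Figure D4:**
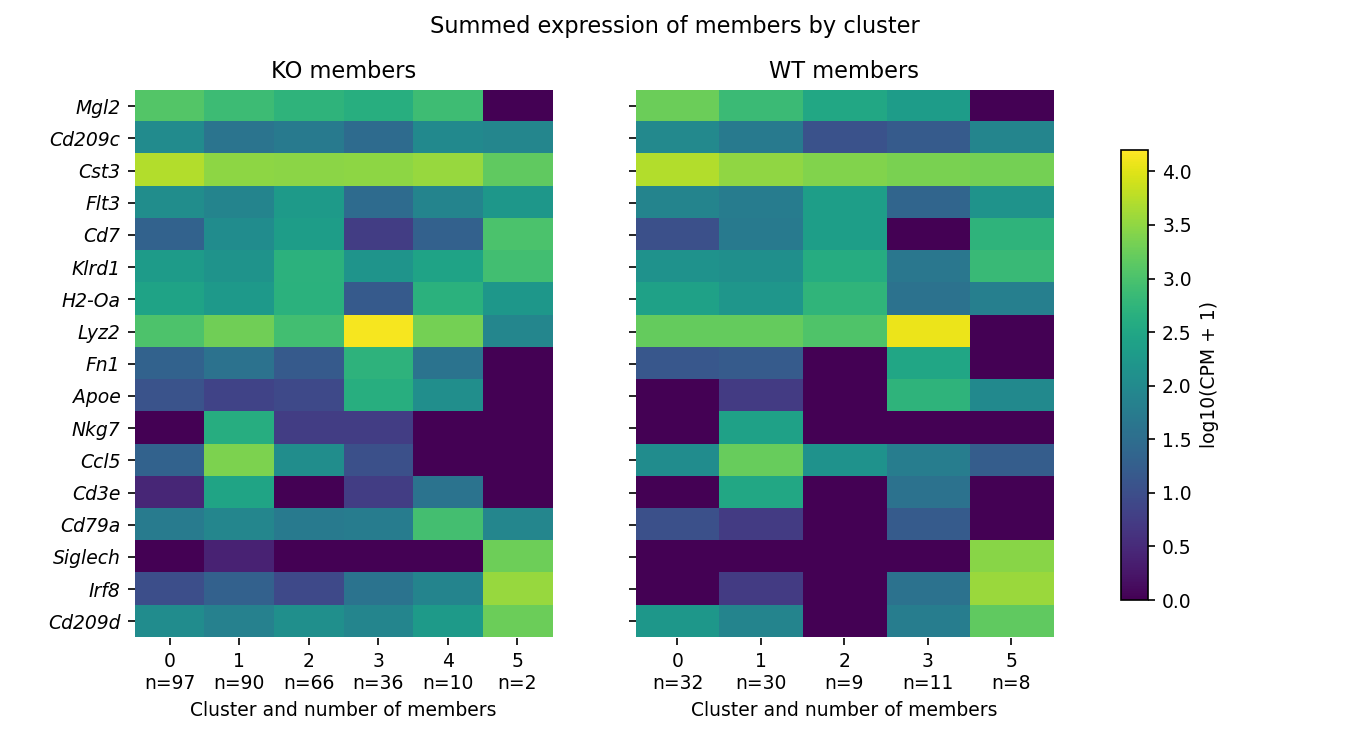
Heat map of log10(CPM + 1) summed over the members of each cluster, KO library left and WT library right, with the number of members under each column. Siglech and Irf8 stood highest in cluster 5, Lyz2 in cluster 3 and Nkg7 in cluster 1, and the WT library had no member in cluster 4.

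Calls between the genotypes were few at the limit used. KO members were set against WT members over 2780 genes at 50 CPM or more, and a gene was called when its interval lay wholly past 1.5-fold. Called higher in KO members were 4 genes (0.144%), and called lower were 27 genes (0.971%), 1.12% of the genes tested in either direction. Since 1 library stood for each genotype, a call describes these libraries, and genotype, mice and sample preparation cannot be told apart.

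The 4 genes called higher were Dab2, Gngt2, Ddit4 and Fos. Dab2, an endocytic adaptor, was 116 CPM in KO members and 46.9 CPM in WT members, a ratio of 2.48 (1.81 to 3.44). Gngt2, a G protein gamma subunit, was 76.1 CPM in KO members and 34.7 CPM in WT members, a ratio of 2.19 (1.52 to 3.24). Ddit4, an inhibitor of mTORC1 induced by stress, was 106 CPM in KO members and 49.7 CPM in WT members, a ratio of 2.13 (1.57 to 2.95). Fos, an immediate-early transcription factor, was 1297 CPM in KO members and 642 CPM in WT members, a ratio of 2.02 (1.86 to 2.20). In B-cell barcodes the KO over WT ratio was 2.38 for Dab2 (1.81 to 3.17), 1.19 for Gngt2, 1.05 for Ddit4 and 1.19 for Fos. In small macrophages it was 2.42 for Dab2 (1.04 to 6.91), 0.892 for Gngt2, 1.16 for Ddit4 and 1.02 for Fos, so the Dab2 ratio was not particular to the members.

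The lower group was led by plasmacytoid genes. Siglech was 12.1 CPM in KO members and 169 CPM in WT members, a ratio of 0.0716 (0.0442 to 0.111). Its UMIs came from 3 KO and 8 WT members. Klk1, Cox6a2, Ccr9 and Ctsl had ratios of 0.125, 0.112, 0.110 and 0.106. Irf8 was 39.4 CPM in KO members and 220 CPM in WT members, a ratio of 0.179 (0.136 to 0.233). Siglech, Klk1, Cox6a2 and Ccr9 define the plasmacytoid gate, and its 9 WT barcodes also held 89.9% of the Ctsl UMIs and 97.0% of the Irf8 UMIs of WT members. All 10 genes of the plasmacytoid list were lower in KO members, 6 of the 7 with enough counts were called, and the median log2 ratio was -2.18. Among members outside every gate, 3 genes of the list had enough counts and their median was -0.31.

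A second part of the lower group did not follow the gates. Irf2bp2, a transcriptional co-repressor, was 109 CPM in KO members and 268 CPM in WT members, a ratio of 0.405 (0.337 to 0.486), and 0.460 outside every gate. Its ratio was 0.360 in B-cell barcodes, 0.377 in T-cell barcodes and 0.674 in small macrophages, so it was not particular to the members. Lilra6 was 13.6 CPM in KO members and 61.9 CPM in WT members, a ratio of 0.221 (0.134 to 0.352), and 0.224 outside every gate. Its ratio was 0.234 in B-cell barcodes and 0.0968 in small macrophages, so it too was not particular to the members. Gbp2, a GTPase induced by interferon-gamma, was 29.4 CPM in KO members and 97.5 CPM in WT members, a ratio of 0.302, and 0.300 outside every gate. In B-cell and T-cell barcodes the Gbp2 ratio was 0.992 and 1.05, and in small macrophages it was 0.249. Ccnd1, cyclin D1, was 59.3 CPM in KO members and 186 CPM in WT members, a ratio of 0.320, and 0.462 outside every gate. Its ratio was 0.689 in B-cell barcodes and 0.242 in small macrophages (0.0585 to 0.952).

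The count of calls moved with the gates. Without the members of the T or NK gate, 11 genes (0.396%) were called higher in KO members and 54 (1.94%) lower. Without the members of the plasmacytoid gate, 9 genes (0.326%) were called higher and 14 (0.507%) lower, and Irf8 then had a ratio of 2.46 (1.07 to 6.60). Cd209d, at 109 CPM in KO members and 178 CPM in WT members, had a ratio of 0.610 (0.499 to 0.747) over all members and 1.0 without that gate. The third set, members outside every gate, left 175 KO and 41 WT barcodes. Of 2712 genes tested in it, 7 (0.258%) were called higher in KO members and 17 (0.627%) lower. They kept 3 of the 4 genes called higher, all but Gngt2, and 9 of the 27 called lower, and all 4 genes called higher had the same direction. Of the 27 called lower, 17 had the same direction, 4 reversed and 6 had no ratio, since the WT members of this set held 0 UMIs of them. Fos had a ratio of 2.03 there, Ddit4 of 3.69 and Klf2, a quiescence-associated transcription factor, of 2.04, having had 1.10 over all members. Lyz2 was called lower with a ratio of 0.563, having had 0.987 over all members.

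**Figure D5:**
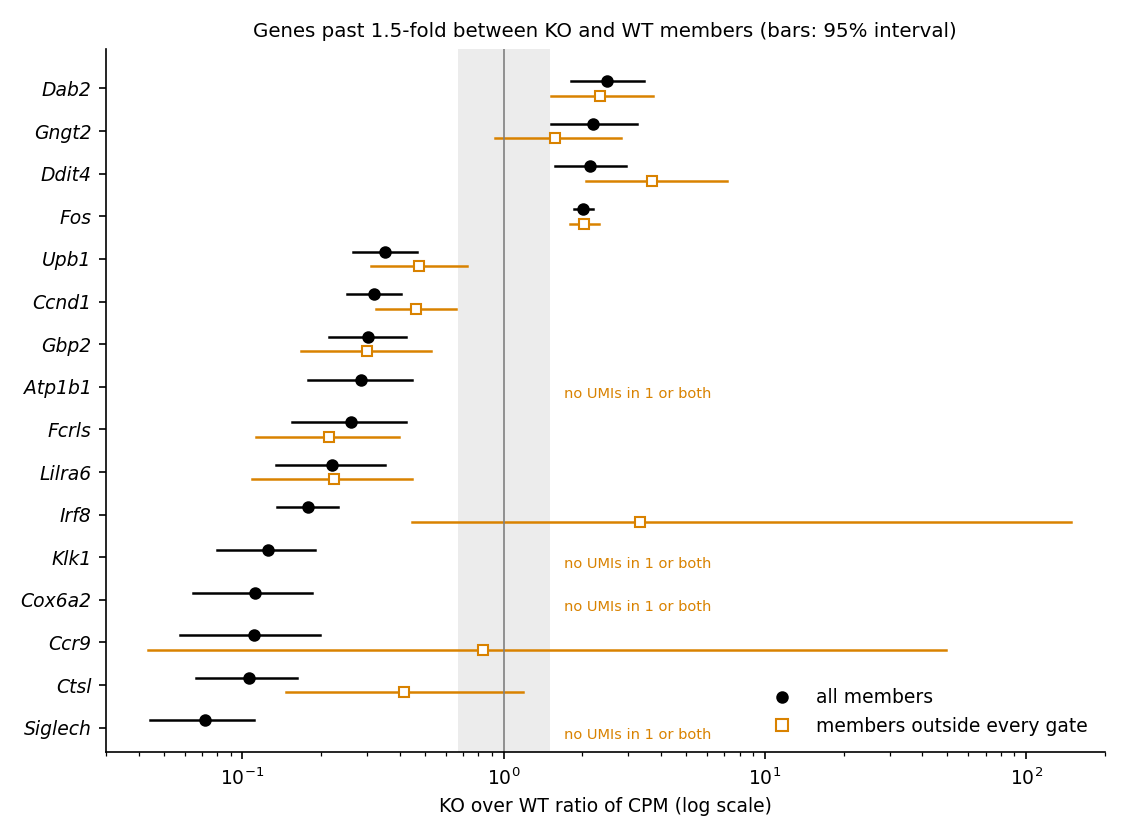
Ratio of CPM, KO members over WT members, on a log axis with exact 95% intervals for counting error. Shown are the 4 genes called higher and the 12 lowest called ratios, over all members and over members outside every gate. Siglech, Klk1 and Irf8 lay far left over all members, and Gbp2 and Lilra6 stayed left of 1 in both sets.

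Among gene lists, read beside all 7501 genes at 10 CPM or more, of which 51.4% were lower in KO members with a median log2 ratio of -0.01, several leaned one way. Of 19 MHC class I presentation genes, 17 were lower in KO members with a median of -0.28, and 16 of 19 outside every gate with a median of -0.35. H2-Q7, a nonclassical class I chain, was 187 CPM in KO members and 261 CPM in WT members, a ratio of 0.717 (0.611 to 0.842). Of 29 interferon-induced genes, 24 were lower with a median of -0.23, and 16 of 25 outside every gate with a median of -0.20. Of 29 nuclear respiratory chain genes 23 were lower with a median of -0.15, whereas 10 of 13 mitochondrially encoded genes were higher with a median of 0.26. Of 18 lipid-handling genes 13 were lower with a median of -0.36, and 12 of 16 outside every gate with a median of -0.17. Without the members of the T or NK gate 9 of 18 were lower with a median of 0.02.

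Lists of dendritic cell subsets and functions varied. The type 1 list had 4 of 7 genes lower with a median of -0.35 and 1 gene called lower, Irf8. Outside every gate, 3 of 5 were lower with a median of -0.26. Without the members of the plasmacytoid gate the list leaned the other way, with 4 of 7 higher and a median of 0.09. The core conventional dendritic cell list had 5 of 10 genes on either side with a median of 0.01, and the type 2 list 8 of 15 higher with a median of 0.09. The NF-kB list had 14 of 24 lower with a median of -0.08, and 18 of 24 outside every gate with a median of -0.22. The immediate-early list had 17 of 25 higher with a median of 0.08. Outside every gate 13 of 25 were higher with a median of 0.05, beside 0.03 for all genes in that set. Without the members of the plasmacytoid gate it was 14 of 25 with a median of 0.02. The MHC class II list had 10 of 13 higher with a median of 0.11, and 9 of 13 outside every gate with a median of 0.04. Flt3 had a ratio of 1.37 (1.06 to 1.79) over all members and Clec4a2, an inhibitory C-type lectin, was 57.2 CPM in KO members and 27.2 CPM in WT members, a ratio of 2.10 (1.39 to 3.29), neither wholly past 1.5-fold. Id2, a transcription factor required for type 1 cells, was 134 CPM in KO members and 237 CPM in WT members, a ratio of 0.564 (0.472 to 0.674). Psap, the precursor of lysosomal saposins, was 1573 CPM in KO members and 2423 CPM in WT members, a ratio of 0.649 (0.616 to 0.684), close to the inverse of 1.5 but not wholly past it. All 10 T-cell genes were lower in KO members with a median of -0.52, beside the T or NK gate of 24.6% of KO and 33.3% of WT members, and the 5 with enough counts outside every gate had a median of 0.18.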

How the data were processed

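Barcoded UMI counts were the authors' deposited gene by barcode matrices, raw counts per gene with no normalization. They were made with Cell Ranger 6.1.2 per the file headers, but version 6.0.1, with Seurat 4.3.0 and build mm39, per the submitters' processing notes. Library construction used a 3' v3.1 kit per the labels' protocols. BCR contigs were the authors' deposited annotations, whose UMI counts were also used. The gene knocked out in the KO mice is not reported here.

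Counts were summed over members of each library and divided by the total (CPM). Shares carry exact Clopper-Pearson 95% intervals, ratios of CPM exact conditional binomial intervals, and ratios of shares normal intervals on the log scale. A count of 0 was bounded with a floor of 3 counts per group of barcodes. Folds given as at least a value divide the observed level by this floor and leave out the counting error of that level. UMIs are molecules, those of the same barcode were counted as independent, and all intervals cover counting error only. Thinning drew 2000 UMIs per barcode and left out barcodes with fewer. Clusters were made with scanpy 1.11.5 and leidenalg 0.10.2 (1000 variable genes, 20 components, 15 neighbours, resolution 0.6). Doublets were not removed, and Scrublet was run as an alternative with an expected rate of 0.8% per 1000 barcodes. Its highest scores up to that rate were marked. Python 3.11.15, numpy 2.4.6, scipy 1.17.1 and pandas 2.3.3 were used, and the calling steps were tested on simulated data.

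The members, the gates and the 38 gene lists (684 genes, of which 10 were not found in the files) were chosen with earlier results of these data known. Named genes were the 12 highest and 12 lowest called ratios between genotypes and against small macrophages, up to 4 genes per list with the largest change, the genes of the membership rule and the listed cell type markers, leaving out immunoglobulin, T-cell receptor segment, sex-linked, mitochondrial, ribosomal and haemoglobin genes. Irf2bp2, and genes named for the type 1 comparison or the members outside every gate, were added after their values were seen. Alternatives were other CPM minimums, fold limits, member sets and thinned counts.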

Additional observations from a re-analysis of the deposited data

Results flagged for a closer look

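The KO over WT ratio of Klk1 differed in direction between kinds of barcode. It was 4.88 in B-cell barcodes and 0.125 in the dendritic cell members. In B-cell barcodes Klk1 was low, at 1.06 CPM in KO mice and 0.217 CPM in WT mice. In KO members all 28 of its UMIs were on 1 barcode. In WT members its 125 UMIs were on 8 barcodes and all lay in the plasmacytoid gate. The difference between these ratios was not tested, since each genotype had 1 library.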

How the results depend on the processing

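No paired analysis was possible because each genotype had 1 expression library and the labels carry no replicate numbers. Of the gene ratios recomputed under the alternatives, 1491 moved by less than their counting interval, 228 moved further and 11 reversed. Reversals were counted only for the 31 called genes of the 134 followed. A change of direction in any other gene was counted by its distance alone. The share ratio of members was 2.11 with the rule applied to thinned counts. Its denominators were the 16554 KO and 9401 WT barcodes with at least 2000 UMIs, against 22327 and 10018 in the main result. Counts and denominators thus both changed. Of the barcodes gained, 105 of 106 in KO mice and 29 of 29 in WT mice had over 10 B-cell UMIs at full depth. Genes called higher in KO members numbered 18 at a minimum of 20 CPM, 53 with no minimum, 2 with thinned members, 11 with thinned membership and 0 at 2-fold. Genes called lower numbered 54 at 20 CPM, 107 with no minimum and 15 at 2-fold, with 30 in thinned members (16 of the 27 shared) and 22 under thinned membership (11 shared). Counts without gated members were chosen after seeing the data. Without the T or NK gate 11 genes were higher and 54 lower, without the plasmacytoid gate 9 and 14, and outside every gate 7 and 17. At 3-fold, 22 genes were called higher and 57 lower in members than in small macrophages. Without the T or NK gate the ratio of Trbc2 reversed to 3.68. Without the plasmacytoid gate Irf8 reversed to 2.46, Bst2 to 1.05, Atp1b1 to 1.05, Ly6c2 to 1.11, Ly6d to 17.8 and Iglc3 to 16.2. Outside every gate Irf8 reversed to 3.33, Bst2 to 1.18, Ly6d to 5.0 and Trbc2 to 2.08. The cause of these moves was not tested. A weighting of barcodes equally gives no interval for counts of called genes and was not run for them. With 90 WT members and 1066948 UMIs, a gene without a UMI in WT members could have been present at up to 2.81 CPM.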
